A study of Mus musculus with 13 samples.

Results

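The genes described here are 47 interferon-stimulated genes of the mouse, taken by symbol from a table of 43629 genes measured by RNA sequencing, and all 47 were found. The libraries came from thymic T cell lymphomas of 5 Atm-/- mice (129S6/SvEv), from those of 5 Rag2c/c p53-/- mice (a mixture of C57BL/6 and 129S6/SvEv) and from the thymus of 3 wild-type (WT) C57BL/6 mice. Atm-/- mice lack the kinase that signals DNA breaks, whereas Rag2c/c p53-/- mice lack p53 and carry a RAG2 protein cut short at its C terminus, a part of the recombinase that assembles antigen receptor genes. The WT libraries were re-used from another series, and 1 of their label fields names the lymphoma while tissue and genotype name the WT thymus. Strain, series and genotype therefore went together, and their parts in a difference between groups cannot be told apart. The age of the mice was not given in the sources used here, no strain-matched thymus was analysed here, and each lymphoma was from a different mouse. A p-value thus describes the spread between mice.

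Interferons are secreted proteins, and a cell releases those of type I and type III when it senses viral or misplaced nucleic acid. Type I and type III interferons act through the JAK kinases on a complex with STAT2 and IRF9 that binds the interferon-stimulated response element, and interferon-gamma acts on a second element, the gamma-activated site. The genes so induced encode enzymes that cut or edit RNA, proteins that block viral entry or attack vacuoles that hold pathogens, RNA sensors, and the transcription factors of the response themselves, and many are transcribed at a low level without infection, in the thymus too.

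Most of the 47 genes were lower in both kinds of lymphoma than in WT thymus, and none was called higher. In Atm-/- lymphomas 30 of 47 (63.8%) were lower and 0 higher, against 17.0% lower and 12.6% higher of the 15872 genes tested. In Rag2c/c p53-/- lymphomas 35 of 47 (74.5%) were lower and 0 higher, against 13.9% lower and 9.77% higher of all genes tested. A gene counted as lower or higher where limma gave a Benjamini-Hochberg adjusted p under 0.05 over all genes tested, the log2 fold change on log2(normalized count + 1) was at least 1 in size, and the mean was at least 10 in 1 of the groups. In a fit with a term for libraries that held Xist RNA, a marker of female cells that all WT thymuses and 3 Atm-/- lymphomas held, 29 and 23 of the 47 genes were called, of 4115 and 1298 called among all genes. This fit was added after seeing the data, and its term rests on the Atm-/- lymphomas, where 3 libraries held Xist and 2 did not. The median log2 fold change of the 47 genes was -1.38 in the Atm-/- and -1.77 in the Rag2c/c p53-/- lymphomas, where that of all genes tested was -0.019 and -0.018. Both comparisons used the same 3 WT thymuses and are given side by side for that reason. These are bulk libraries, in which fewer cells of a type and less RNA per cell cannot be told apart.

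**Figure D1:**
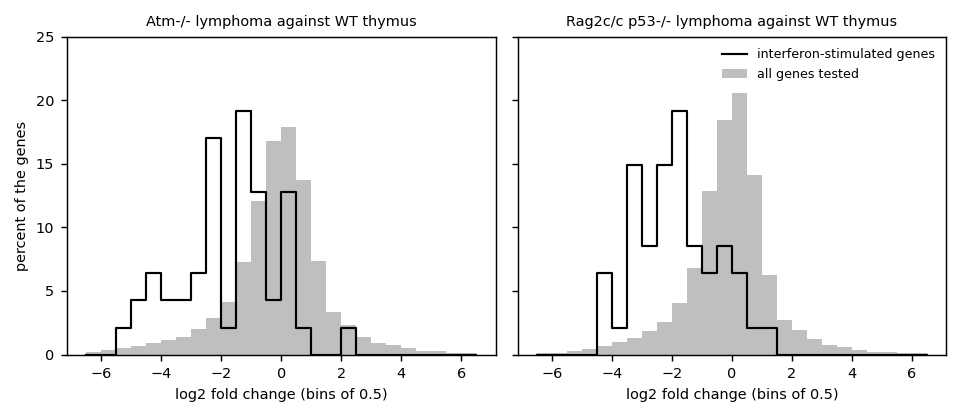
Distribution of log2 fold changes, in bins of 0.5, for all 15872 genes tested (grey bars) and the 47 interferon-stimulated genes (black line), as a percent of each; genes beyond the axis are left out. The line is shifted to the left of the bars in both panels, with medians of -1.38 and -1.77 against -0.019 and -0.018.

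In 29 genes the fall was called in both lymphoma groups. Stat2 was called in Atm-/- lymphomas alone, and Ifit2, Ddx58, Gbp3, Ifi35, Xaf1 and Sp100 in Rag2c/c p53-/- lymphomas alone, although only for Gbp3 and Xaf1 among these 7 was a difference called when the lymphoma groups were compared with each other. The other 11 genes were called in neither group. Each library showed the shift by itself. Relative to the WT mean, the median over the 47 genes lay between -0.07 and 0.03 on the log2 scale in the WT thymuses, between -1.65 and -1.20 in the Atm-/- lymphomas and between -2.15 and -1.74 in the Rag2c/c p53-/- lymphomas. In 35 of 47 genes (74.5%) every Atm-/- lymphoma lay below every WT thymus, against 27.9% of all genes tested, and in 38 of 47 (80.9%) every Rag2c/c p53-/- lymphoma did, against 24.2%.

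**Figure D2:**
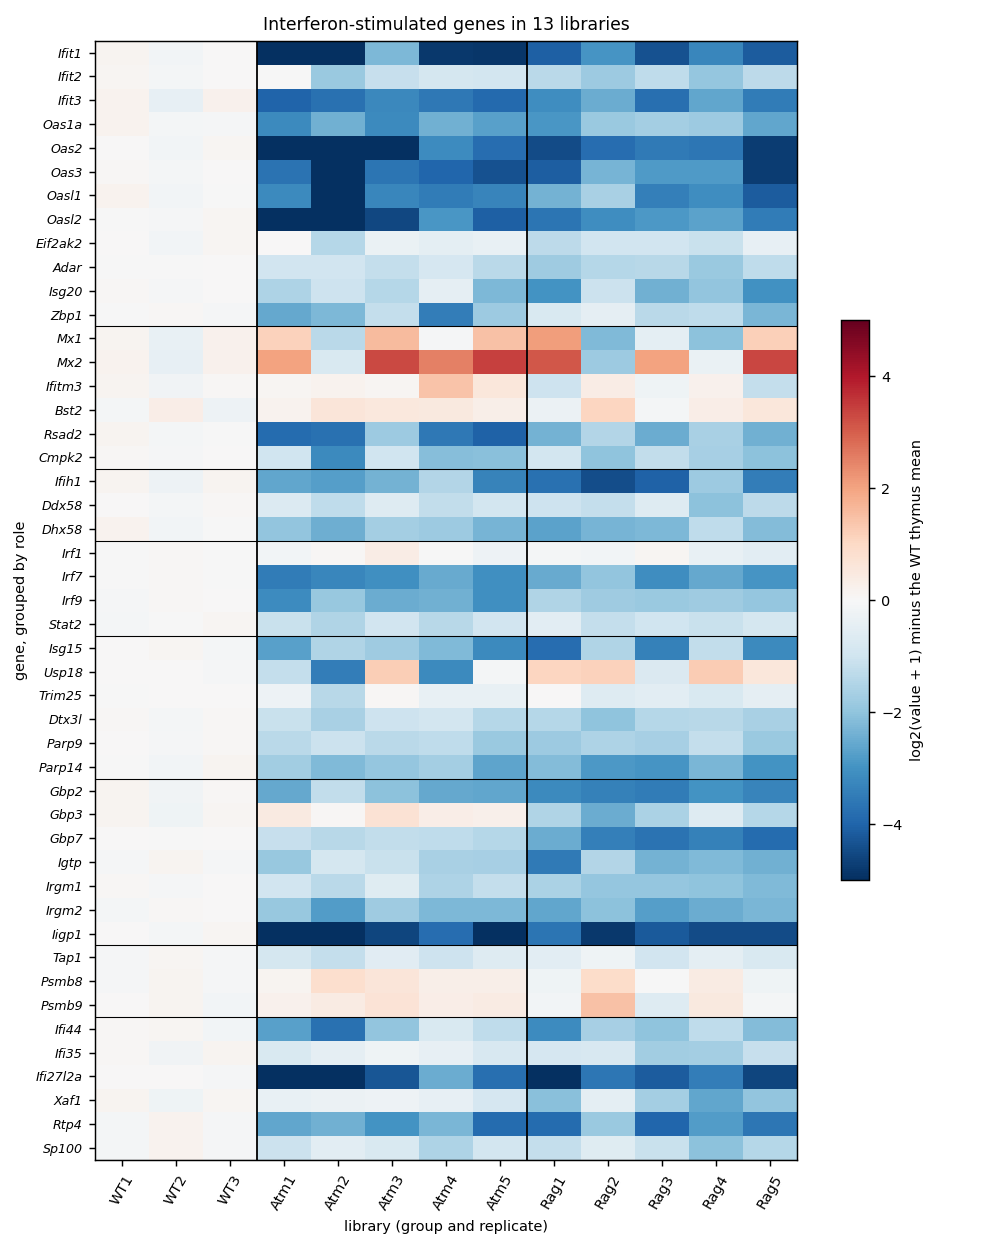
Each row is a gene, in the order of the roles described in the text (separated by lines), and each column a library. Colour gives log2(normalized count + 1) minus the mean of the 3 WT thymuses and is held at -5 for lower values. Blue fills most rows of all 10 lymphoma columns, while Mx1, Mx2 and Usp18 turn from blue to red between single lymphomas.

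Promoter sequence was available for 36 of the 47 genes (RefSeq, GRCm38.p6, 250 bases before to 50 after each transcription start), read in the direction of transcription. The core of the interferon-stimulated response element, searched as GAAANNGAAA on either strand, was found in 18 of the 36 (50.0%) and in 3.99% of 27025 genes with such a window. The gamma-activated site, searched as TTCNNNGAA, was found in 13 of the 36 (36.1%) and in 9.55% of all genes. Matches of the motifs can overlap each other, as they do in Bst2. Among genes with a window, the response element core was in 12 of the 21 called lower in both lymphoma groups and in 3 of the 8 called in neither, and the gamma-activated site was in 6 of the 21 and in 5 of the 8. The stretches below lie upstream of the start and are shown because they carry the motif, in capitals (TTTCNNTTTC where it lies on the other strand), in genes that fell strongly (Ifit1, Isg15, Oas3, Rsad2), in genes that differed between the lymphomas (Gbp3, Gbp7) and in 1 gene that was called in neither (Bst2).
Ifit1 (chr19:34640749-34640870, plus strand): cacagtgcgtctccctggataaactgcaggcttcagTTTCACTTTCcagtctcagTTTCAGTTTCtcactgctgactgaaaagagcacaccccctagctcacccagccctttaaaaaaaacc
Isg15 (chr4:156200819-156200958, minus strand): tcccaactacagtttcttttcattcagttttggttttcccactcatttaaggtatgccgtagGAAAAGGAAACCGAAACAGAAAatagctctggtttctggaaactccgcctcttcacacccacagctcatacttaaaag
Oas3 (chr5:120777662-120777799, minus strand): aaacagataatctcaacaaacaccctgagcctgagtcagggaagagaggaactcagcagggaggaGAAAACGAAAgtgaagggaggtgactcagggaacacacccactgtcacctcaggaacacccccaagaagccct
Rsad2 (chr12:26456453-26456592, minus strand): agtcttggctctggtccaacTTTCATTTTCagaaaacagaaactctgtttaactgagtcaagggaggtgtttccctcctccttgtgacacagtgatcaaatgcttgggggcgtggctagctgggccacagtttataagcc
Gbp3 (chr3:142559904-142560025, plus strand): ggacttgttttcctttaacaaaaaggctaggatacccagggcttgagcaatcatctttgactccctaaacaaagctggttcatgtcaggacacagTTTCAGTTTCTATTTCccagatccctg
Gbp7 (chr3:142530196-142530335, plus strand): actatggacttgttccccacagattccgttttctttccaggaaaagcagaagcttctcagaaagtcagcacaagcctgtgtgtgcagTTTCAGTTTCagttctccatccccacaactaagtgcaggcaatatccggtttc
Bst2 (chr8:71537473-71537612, minus strand): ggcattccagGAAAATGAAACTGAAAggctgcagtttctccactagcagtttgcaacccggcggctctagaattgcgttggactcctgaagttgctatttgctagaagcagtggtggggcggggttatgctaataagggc

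Counted from the start, with the base before it as -1, the motif lay from -104 to -76 in Ifit1 (2 separate matches), from -78 to -57 in Isg15 (3 overlapping matches), from -75 to -66 in Oas3, from -120 to -111 in Rsad2, from -45 to -30 in Gbp3 (2 overlapping matches), from -53 to -44 in Gbp7 and from -130 to -115 in Bst2 (2 overlapping matches). A match is a run of letters, and binding was not measured here.

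The genes lay in several clusters of the genome (GRCm38, coordinates of the deposited table). Ifit2, Ifit3 and Ifit1 followed each other on chromosome 19 from 34550694 to 34650009. Oas2, Oas3 and Oas1a lay on chromosome 5 from 120730333 to 120907521, with Oasl2 and Oasl1 apart from them between 114896936 and 114937915. Gbp7, Gbp3 and Gbp2 lay on chromosome 3 from 142530338 to 142638008, Igtp and Irgm2 overlapped on chromosome 11 from 58199556 to 58222779, and Parp14, Dtx3l and Parp9 lay on chromosome 16 from 35832874 to 35972605. Exons of 12 of the 47 genes shared bases with those of another gene whose mean over the 13 libraries was at least 10, among them Dtx3l with Parp9 and Tap1 with Psmb9 on opposite strands and Igtp with Irgm2 on the same strand. The strand setting of the counting was not given in the sources used here, so reads of these overlaps cannot be assigned with certainty. Per kilobase of exon, the mean level in WT thymus was highest for Ifi27l2a (2399), followed by Psmb8 (1708), Bst2 (1530), Igtp (1259) and Sp100 (1026), and lowest for Ifi44 (21.6), Mx2 (41.8), Iigp1 (53.4) and Mx1 (55.8).

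The largest role group, antiviral effectors that bind, cut or edit RNA, had 10 of its 12 genes lower in the Atm-/- and 11 of 12 in the Rag2c/c p53-/- lymphomas, with median log2 fold changes of -3.23 and -2.61. The counts for this and the following role groups stand beside 17.0% and 13.9% of all genes tested called lower, Atm-/- lymphomas first. Every lymphoma of a group lay below every WT thymus in 27.9% and 24.2% of all genes tested, in the same order. Values per library are normalized counts, in the order of the replicate numbers. IFIT proteins hold viral RNA that lacks the host's cap marks. Ifit1 was at 1010, 848 and 937 in WT thymus, at 26, 27, 195, 32 and 31 in Atm-/- lymphomas and at 54, 118, 44, 96 and 51 in Rag2c/c p53-/- lymphomas. Ifit3 was at 470, 312 and 482 in WT, at 25, 30, 43, 34 and 27 in the Atm-/- and at 47, 74, 29, 68 and 36 in the Rag2c/c p53-/- lymphomas. Neither gene overlapped between WT and lymphomas. Ifit1 was 21.4-fold lower in Atm-/- lymphomas (log2 fold change -4.42 ± 0.58 (SE), limma adjusted p = 8.1e-05) and 13.6-fold lower in Rag2c/c p53-/- lymphomas (-3.77 ± 0.58, limma adjusted p = 0.00037), and Ifit3 was 12.9-fold and 8.50-fold lower. Ifit2, their neighbour, was at 1345, 1192 and 1273 in WT, at 1235, 354, 577, 690 and 674 in the Atm-/- and at 496, 361, 531, 335 and 514 in the Rag2c/c p53-/- lymphomas. Atm-/- lymphoma 1 lay within the WT range for Ifit2, whose log2 fold change was -0.96 in the Atm-/- and -1.53 in the Rag2c/c p53-/- lymphomas. The fold of Ifit2 in Atm-/- lymphomas missed the limit of 1, while its adjusted p did not (limma, 0.022).

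The 2′-5′-oligoadenylate synthetases, which make the messenger that activates the nuclease RNase L, and the related Oasl genes fell in both groups. Oas2 was at 543, 487 and 569 in WT, at 13, 5, 11, 60 and 37 in the Atm-/- and at 23, 37, 45, 43 and 19 in the Rag2c/c p53-/- lymphomas, log2 fold changes of -4.83 ± 0.63 and -4.03 ± 0.63 (limma adjusted p = 7.4e-05 and 0.00039). Oas3 was at 1066, 952 and 1025 in WT, at 77, 30, 79, 64 and 48 in the Atm-/- and at 57, 199, 143, 140 and 37 in the Rag2c/c p53-/- lymphomas. Oas1a was at 182, 153 and 155 in WT, at 17, 30, 17, 30 and 24 in the Atm-/- and at 21, 44, 50, 46 and 26 in the Rag2c/c p53-/- lymphomas. No lymphoma reached the lowest WT thymus in any of these 3 genes, and the fall of Oas1a was the smallest of them, at -2.78 and -2.17 against -4.15 and -3.37 for Oas3. Oasl1 encodes a protein without synthetase activity that represses translation of Irf7. Oasl1 was at 318, 260 and 278 in WT, at 30, 5, 29, 24 and 28 in the Atm-/- and at 55, 91, 26, 32 and 15 in the Rag2c/c p53-/- lymphomas (log2 fold changes -3.77 and -2.93). Oasl2 was at 621, 614 and 677 in WT, at 10, 14, 26, 83 and 37 in the Atm-/- and at 50, 74, 87, 99 and 55 in the Rag2c/c p53-/- lymphomas (-4.56 and -3.15). In Oasl2 the lymphoma groups differed by -1.41, Atm-/- minus Rag2c/c p53-/-, which did not pass the test (limma adjusted p = 0.067).

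The group also holds enzymes and sensors outside these families. Adar, which edits adenosine in double-stranded RNA, was at 4082, 4103 and 4255 in WT, at 2152, 2160, 1832, 2333 and 1634 in the Atm-/- and at 1195, 1537, 1583, 1158 and 1725 in the Rag2c/c p53-/- lymphomas, 2.07-fold and 2.91-fold lower. Isg20, an exonuclease, was at 545, 497 and 525 in WT, at 179, 251, 194, 378 and 110 in the Atm-/- and at 65, 250, 98, 131 and 64 in the Rag2c/c p53-/- lymphomas, 2.54-fold and 4.88-fold lower. Both genes were below WT in all 10 lymphomas, but neither call in Atm-/- lymphomas was stable: without Atm-/- lymphoma 5 the log2 fold changes were -0.97 for Adar and -1.12 for Isg20, and both lost their call. Isg20 lost it also without any 1 of the WT thymuses. Zbp1, a sensor of Z-form nucleic acid that starts necroptosis, was at 2152, 2280 and 2100 in WT, at 369, 464, 948, 197 and 620 in the Atm-/- and at 1284, 1601, 854, 910 and 450 in the Rag2c/c p53-/- lymphomas. Its log2 fold change was -2.25 ± 0.45 in Atm-/- (limma adjusted p = 0.0014) and -1.22 ± 0.45 in Rag2c/c p53-/- lymphomas (limma adjusted p = 0.047), and the latter call was lost without any 1 of the WT thymuses or without Rag2c/c p53-/- lymphoma 3, 4 or 5 (-0.95 without lymphoma 5). Eif2ak2, the kinase PKR that halts translation on double-stranded RNA, was at 994 to 1188 in WT and 404 to 1110 in the lymphomas and was called in neither group (-0.51 and -0.95).

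The other antiviral effectors were split, with 2 of 6 called lower in each lymphoma group. Rsad2 encodes viperin, which makes a nucleotide that stops viral polymerases, and Cmpk2, its neighbour, a nucleotide kinase. Rsad2 was at 450, 383 and 411 in WT, at 28, 30, 116, 34 and 24 in the Atm-/- and at 80, 149, 74, 135 and 77 in the Rag2c/c p53-/- lymphomas, 10.6-fold and 4.18-fold lower (limma adjusted p = 0.00010 and 0.0039). Cmpk2 was at 309, 283 and 303 in WT, at 147, 32, 147, 68 and 70 in the Atm-/- and at 158, 74, 128, 94 and 72 in the Rag2c/c p53-/- lymphomas, 3.68-fold and 2.95-fold lower. All 10 lymphomas were below WT for this pair, and the call of Cmpk2 in Rag2c/c p53-/- lymphomas was lost without WT thymus 1 (-1.54) or 3 (-1.55). The Mx proteins are dynamin-like GTPases that trap viral nucleocapsids. Mx1 was at 230, 162 and 242 in WT, at 467, 82, 633, 199 and 584 in the Atm-/- and at 896, 44, 148, 49 and 478 in the Rag2c/c p53-/- lymphomas. Mx2 was at 169, 110 and 174 in WT, at 607, 87, 1464, 854 and 1596 in the Atm-/- and at 1298, 41, 600, 118 and 1525 in the Rag2c/c p53-/- lymphomas. Lymphomas lay on both sides of the WT thymuses for Mx1 and Mx2, within each genotype. Atm-/- lymphoma 2 and Rag2c/c p53-/- lymphoma 2 were the lowest of their groups in both genes. In these libraries 1 read was worth the most within each group, about 2.29 and 3.38. WT thymus 2, where it was worth 3.25, was also the lowest WT library for both genes. The part of library depth in this was not tested. Log2 fold changes of Mx2 were 2.10 ± 1.13 and 1.27 ± 1.13, and neither passed the test (limma adjusted p = 0.15 and 0.40). Ifitm3 and Bst2 (tetherin), membrane proteins that block viral entry and release, ranged from 91 to 562 and from 1119 to 2871 in the lymphomas, with log2 fold changes between -0.37 and 0.47 that did not pass the test.

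The RNA sensors of the RIG-I family were lower, 2 of 3 in the Atm-/- and 3 of 3 in the Rag2c/c p53-/- lymphomas. Ifih1, the sensor MDA5 for long double-stranded RNA, was at 827, 627 and 826 in WT, at 124, 112, 147, 273 and 73 in the Atm-/- and at 56, 34, 45, 216 and 68 in the Rag2c/c p53-/- lymphomas, 5.65-fold and 11.2-fold lower (limma adjusted p = 0.0020 and 0.00031). Dhx58, the regulatory member LGP2, was at 714, 575 and 636 in WT, at 162, 116, 195, 182 and 127 in the Atm-/- and at 99, 128, 135, 262 and 141 in the Rag2c/c p53-/- lymphomas, 4.15-fold and 4.40-fold lower. Ddx58, RIG-I itself, was at 2405, 2215 and 2429 in WT, at 1448, 984, 1494, 1013 and 1241 in the Atm-/- and at 1140, 1017, 1507, 572 and 960 in the Rag2c/c p53-/- lymphomas. All lymphomas were below WT in these 3 genes, and Ddx58 fell least, by 0.95 in Atm-/- (limma adjusted p = 0.0086, under the fold limit) and by 1.24 in Rag2c/c p53-/- lymphomas on the log2 scale.

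Among the transcription factors 3 of 4 were lower in the Atm-/- and 2 of 4 in the Rag2c/c p53-/- lymphomas. Irf7, which drives transcription of type I interferon genes, was at 1426, 1501 and 1410 in WT, at 127, 151, 172, 254 and 170 in the Atm-/- and at 250, 368, 166, 244 and 188 in the Rag2c/c p53-/- lymphomas, 8.45-fold and 6.15-fold lower (limma adjusted p = 4.4e-06 and 2.6e-05). Irf9, the DNA-binding partner of STAT2, was at 2140, 2306 and 2253 in WT, at 253, 594, 403, 417 and 263 in the Atm-/- and at 782, 642, 614, 655 and 591 in the Rag2c/c p53-/- lymphomas, 6.07-fold and 3.41-fold lower. Stat2 was at 2120, 2209 and 2410 in WT, at 1035, 797, 1151, 863 and 1160 in the Atm-/- and at 1569, 990, 1110, 1028 and 1203 in the Rag2c/c p53-/- lymphomas. Every lymphoma was below WT in these 3 genes, and the log2 fold change of Stat2 was -1.18 in the Atm-/- and -0.95 in the Rag2c/c p53-/- lymphomas, with an adjusted p of 0.00021 and 0.0013 by limma. Irf1, a target of interferon-gamma, stood apart from them, at 2323 to 2453 in WT and 1645 to 3072 in the lymphomas, with log2 fold changes of 0.01 and -0.21 (95% intervals -0.35 to 0.36 and -0.57 to 0.15). Under other scalings of the libraries the sign of the former turned.

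**Figure D3:**
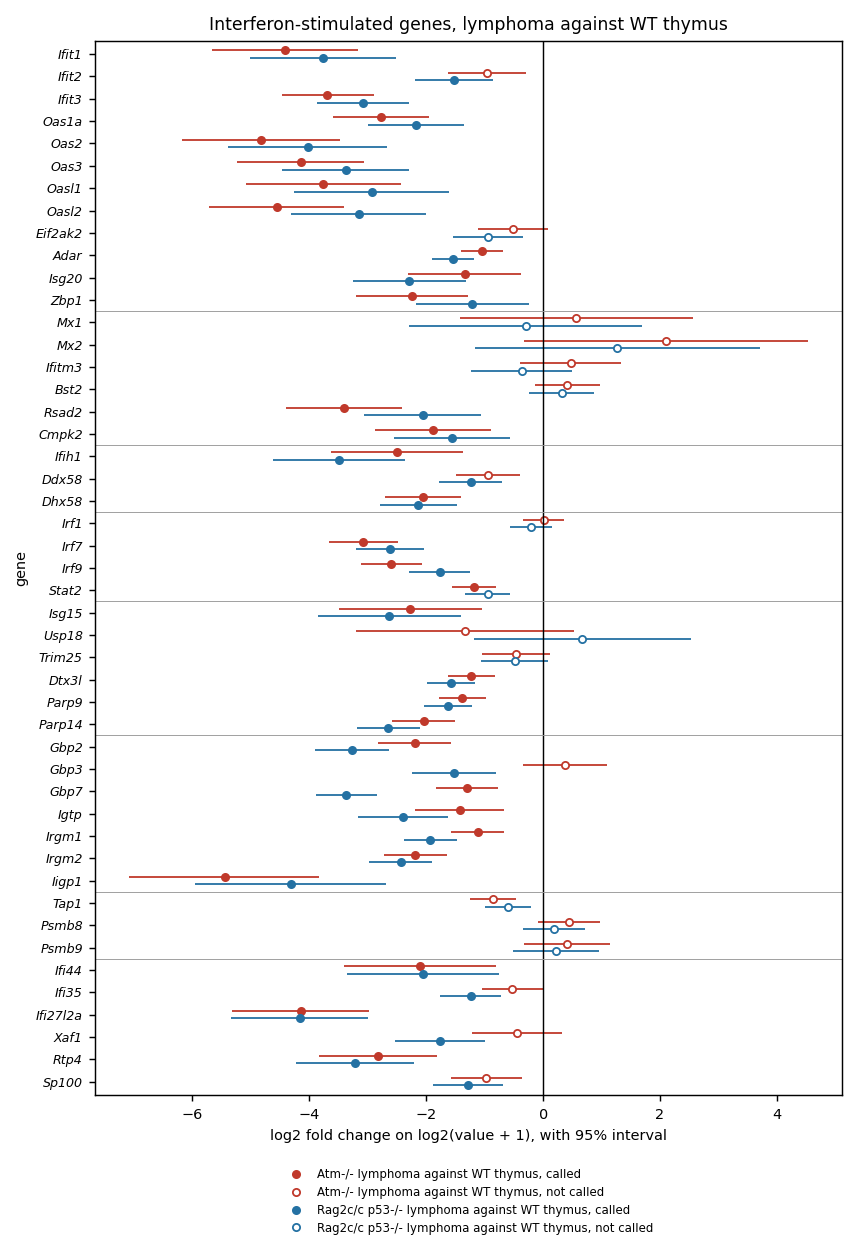
Log2 fold change on log2(normalized count + 1) with its 95% interval for each of the 47 genes, Atm-/- (red) and Rag2c/c p53-/- lymphomas (blue) against the same WT thymuses. Filled points were called and open points were not. The filled points all lie left of 0, and the widest intervals are those of Mx1, Mx2 and Usp18.

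ISG15 is a ubiquitin-like protein attached to other proteins, and its group had 4 of 6 genes lower in each kind of lymphoma. Isg15 was at 541, 581 and 503 in WT, at 82, 190, 158, 115 and 59 in the Atm-/- and at 38, 189, 51, 228 and 58 in the Rag2c/c p53-/- lymphomas, 4.84-fold and 6.17-fold lower (limma adjusted p = 0.0060 and 0.0032). The ubiquitin ligase DTX3L and its partner PARP9, with PARP14, modify proteins by ubiquitin and ADP-ribose. Dtx3l was at 4099, 3703 and 4136 in WT, at 1816, 1279, 1956, 2123 and 1465 in the Atm-/- and at 1461, 973, 1471, 1524 and 1299 in the Rag2c/c p53-/- lymphomas. Parp9 was at 1996, 1926 and 2067 in WT, at 776, 955, 780, 829 and 557 in the Atm-/- and at 559, 682, 624, 874 and 553 in the Rag2c/c p53-/- lymphomas. Parp14 was at 2453, 2280 and 2772 in WT, at 743, 544, 656, 763 and 399 in the Atm-/- and at 551, 344, 318, 515 and 315 in the Rag2c/c p53-/- lymphomas. None of these 4 genes overlapped between WT and lymphomas, and within the chromosome 16 cluster Parp14 fell by 2.04 and 2.65, Parp9 by 1.38 and 1.62 and Dtx3l by 1.23 and 1.58 on the log2 scale. Usp18, the protease that removes ISG15 and dampens the type I receptor, was at 620, 624 and 591 in WT, at 269, 55, 1421, 66 and 576 in the Atm-/- and at 1277, 1348, 373, 1489 and 903 in the Rag2c/c p53-/- lymphomas. Its lymphoma values thus spanned from far below to above WT, 27.1-fold from lowest to highest, with no call (log2 fold changes -1.34 ± 0.86 and 0.67 ± 0.86). Trim25, a ubiquitin ligase of RIG-I signalling, was at 3917 to 4061 in WT and 1512 to 4146 in the lymphomas and was called in neither group (-0.46 and -0.48).

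The GTPases that attack vacuoles of intracellular pathogens, targets of interferon-gamma above all, were lower in 6 of 7 genes in the Atm-/- and 7 of 7 in the Rag2c/c p53-/- lymphomas. Iigp1 showed the largest fall of all 47 genes in both groups. It was at 317, 286 and 329 in WT, at 6, 0, 12, 21 and 8 in the Atm-/- and at 24, 10, 16, 13 and 13 in the Rag2c/c p53-/- lymphomas, log2 fold changes of -5.45 ± 0.76 and -4.32 ± 0.76 (limma adjusted p = 0.00011 and 0.00082). In Atm-/- lymphoma 2, where Iigp1 was at 0, 1 read was worth about 2.29. The regulatory GTPases of the family fell less. Igtp was at 2448, 2777 and 2414 in WT, at 678, 1393, 1174, 816 and 810 in the Atm-/- and at 221, 915, 490, 557 and 474 in the Rag2c/c p53-/- lymphomas, 2.70-fold and 5.26-fold lower. Irgm1 was at 1466, 1342 and 1435 in WT, at 733, 559, 940, 485 and 613 in the Atm-/- and at 473, 368, 372, 353 and 307 in the Rag2c/c p53-/- lymphomas, 2.18-fold and 3.80-fold lower. Irgm2 was at 903, 994 and 985 in WT, at 258, 139, 279, 201 and 199 in the Atm-/- and at 156, 233, 143, 169 and 195 in the Rag2c/c p53-/- lymphomas, 4.57-fold and 5.41-fold lower. All 10 lymphomas were below WT in these 4 genes.

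The guanylate-binding proteins coat such vacuoles, and here the lymphoma groups differed from each other. Gbp7 was at 2223, 2157 and 2249 in WT, at 994, 834, 931, 914 and 812 in the Atm-/- and at 391, 206, 171, 212 and 151 in the Rag2c/c p53-/- lymphomas. Gbp3 was at 294, 227 and 283 in WT, at 364, 281, 436, 338 and 319 in the Atm-/- and at 93, 47, 88, 171 and 98 in the Rag2c/c p53-/- lymphomas. Gbp2 was at 1435, 1160 and 1359 in WT, at 224, 559, 312, 222 and 218 in the Atm-/- and at 144, 125, 116, 166 and 132 in the Rag2c/c p53-/- lymphomas. In all 3 genes every Atm-/- lymphoma was above every Rag2c/c p53-/- lymphoma, and Gbp3 in Atm-/- lymphomas overlapped with WT. The difference between lymphomas was 2.06 ± 0.21 for Gbp7 (limma adjusted p = 4.0e-05), 1.90 ± 0.29 for Gbp3 (limma adjusted p = 0.0010) and 1.07 ± 0.25 for Gbp2 (limma adjusted p = 0.016). Without Atm-/- lymphoma 2, the highest for Gbp2, that of Gbp2 was 0.83 and under the fold limit. Against WT, the log2 fold changes were -1.30 and -3.37 for Gbp7, -2.20 and -3.27 for Gbp2, and 0.37 and -1.53 for Gbp3, Atm-/- lymphomas first.

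Over the 47 genes, the direct comparison of the lymphomas called 4 genes higher (8.51%) and 1 lower (2.13%) in Atm-/- than in Rag2c/c p53-/- lymphomas, where 3.51% and 4.33% of all genes tested were called. Besides the 3 Gbp genes, these were Xaf1, which binds an inhibitor of apoptosis, and Rsad2. Xaf1 was at 788, 624 and 772 in WT, at 557, 587, 600, 549 and 406 in the Atm-/- and at 168, 517, 221, 119 and 186 in the Rag2c/c p53-/- lymphomas, a difference between lymphomas of 1.33 ± 0.31 (limma adjusted p = 0.014). The groups overlapped through Rag2c/c p53-/- lymphoma 2. Rsad2 was lower in Atm-/- lymphomas by 1.34 ± 0.40 (limma adjusted p = 0.045), with Atm-/- lymphoma 3 (116) among the values of the other group, and this call was lost in 9 of the 10 refits that left out 1 lymphoma, being kept without Atm-/- lymphoma 3. Irgm1 (0.80, limma adjusted p = 0.013), Irf9 (-0.83, 0.022), Adar (0.50, 0.038) and Ifi35 (0.71, 0.042) passed the adjusted p but not the fold limit. With the Xist term 2 genes stayed called, Gbp3 and Gbp7, of 610 among all genes, and the differences of Gbp2 (0.69), Xaf1 (1.15) and Rsad2 (-1.75) did not pass.

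**Figure D4:**
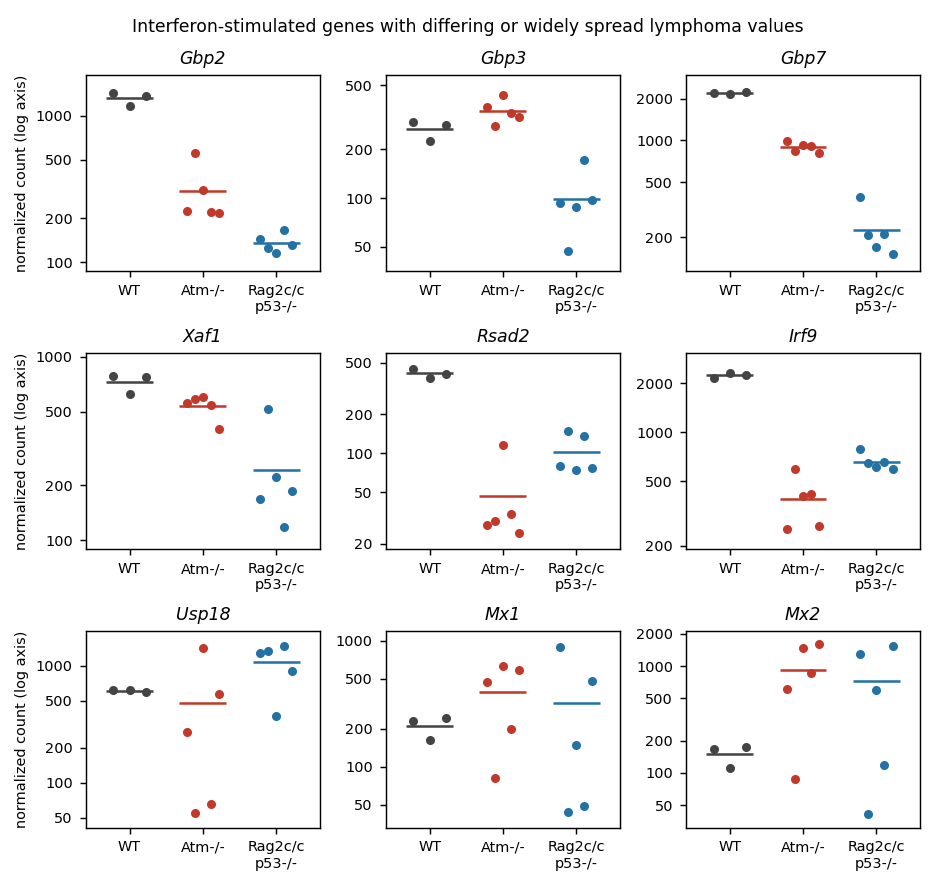
Normalized counts on log axes in the 13 libraries, each point a mouse and each bar the group mean, for the 5 genes called between the lymphoma groups, for Irf9, and for the 3 genes with the widest intervals. Atm-/- lymphomas lie above Rag2c/c p53-/- lymphomas for Gbp2, Gbp3 and Gbp7, and lymphoma values of Usp18, Mx1 and Mx2 spread to both sides of WT.

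Antigen processing was the role group without a call. Tap1, which carries peptides into the endoplasmic reticulum, was at 4284 to 4684 in WT and 1930 to 3816 in the lymphomas, with log2 fold changes of -0.86 and -0.60 that passed the adjusted p (limma, 0.0020 and 0.020) but not the fold limit. The immunoproteasome subunits Psmb8 and Psmb9 had log2 fold changes of 0.44 and 0.41 in the Atm-/- and of 0.18 and 0.22 in the Rag2c/c p53-/- lymphomas, none past the test. Their lymphoma values reached 11003 for Psmb8 and 3924 for Psmb9, both in Rag2c/c p53-/- lymphoma 2, against at most 6361 and 1579 in WT. Both WT values were from WT thymus 2, which with that lymphoma was among the shallowest libraries.

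Of the 6 other induced genes 3 were lower in the Atm-/- and 6 in the Rag2c/c p53-/- lymphomas. Ifi27l2a, the gene with the highest level per kilobase in WT, was at 1136, 1127 and 1069 in WT, at 32, 30, 57, 197 and 80 in the Atm-/- and at 34, 91, 61, 99 and 45 in the Rag2c/c p53-/- lymphomas, 17.8-fold and 17.9-fold lower (limma adjusted p = 7.7e-05 and 0.00012). Rtp4, a chaperone of receptors, was at 826, 981 and 835 in WT, at 144, 167, 110, 179 and 60 in the Atm-/- and at 60, 240, 55, 125 and 71 in the Rag2c/c p53-/- lymphomas, 7.07-fold and 9.32-fold lower. Ifi44 was at 137, 140 and 120 in WT, at 19, 9, 33, 77 and 54 in the Atm-/- and at 14, 41, 32, 54 and 29 in the Rag2c/c p53-/- lymphomas, 4.28-fold and 4.14-fold lower. These 3 genes were below WT in all lymphomas, though the call of Ifi44 in Rag2c/c p53-/- lymphomas was lost without any 1 of the WT thymuses, at log2 fold changes of -2.12 to -2.01. Sp100, a component of PML nuclear bodies, was at 7198, 8674 and 7376 in WT, at 3689, 5298, 4521, 2617 and 4131 in the Atm-/- and at 3407, 5015, 3559, 1840 and 2889 in the Rag2c/c p53-/- lymphomas. Ifi35 was at 894, 776 and 946 in WT, at 509, 637, 746, 647 and 505 in the Atm-/- and at 485, 500, 260, 269 and 390 in the Rag2c/c p53-/- lymphomas. Sp100 and Ifi35 were below WT in all lymphomas too, with log2 fold changes of -0.97 and -0.53 in the Atm-/- and of -1.28 and -1.24 in the Rag2c/c p53-/- lymphomas.

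The genes that act upstream of these were read from separate lists. Of 8 interferon ligands none reached the level for testing. Ifng was at 13, 10 and 8 in WT thymus and at 0 to 2 in the lymphomas, and the type I and type III interferons listed (Ifna2, Ifna4, Ifnb1, Ifne, Ifnk, Ifnl2, Ifnl3) were at 0 to 3 in every library. Among 9 receptors and kinases, 4 were lower and none higher in each comparison with WT. Of all genes tested, 17.0% were lower and 12.6% higher in the Atm-/- lymphomas. In the Rag2c/c p53-/- lymphomas the shares were 13.9% and 9.77%. The kinases Jak2 (log2 fold changes -1.67 and -1.72) and Tyk2 (-1.26 and -1.23) and the receptor chain Ifnlr1 (-2.51 and -2.47) were lower in both. Ifnlr1 was near the floor, at 22, 16 and 27 in WT and at 0 to 14 in the lymphomas (SE 0.78, limma adjusted p = 0.019 and 0.024). The receptor chains for type I interferon were at -0.80 (not called) and -1.01 (called) for Ifnar1 and at 0.44 and 0.23 (neither called) for Ifnar2. Ifngr2 (-0.56 and -0.90), Il10rb (0.22 and -0.01) and Jak1 (-0.91 and -0.78) were not called. Ifngr1, the chain that binds interferon-gamma, was at 5990, 7582 and 5553 in WT, at 1766, 2174, 3375, 1737 and 2508 in the Atm-/- and at 14184, 12651, 6788, 5185 and 9223 in the Rag2c/c p53-/- lymphomas. Every Atm-/- lymphoma was thus below, and 4 of 5 Rag2c/c p53-/- lymphomas above, the lowest WT value, and the lymphomas differed by -2.00 (limma adjusted p = 0.00038).

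Of 13 genes of nucleic acid sensing, 3 were lower and 1 higher in each lymphoma group. The shares of all genes tested were 17.0% lower and 12.6% higher in Atm-/- lymphomas. They were 13.9% and 9.77% in Rag2c/c p53-/- lymphomas, and whether this list differs from them was not tested. The kinase gene Ikbke (-1.25 and -1.66) and the receptors Tlr7 (-2.32 and -2.76) and Tlr9 (-1.80 and -1.99) fell. Mb21d1, which encodes the DNA sensor cGAS, rose by 2.42 and 2.03 on the log2 scale (limma adjusted p = 3.0e-06 and 2.3e-05), from 212, 188 and 249 in WT to 1072, 811, 1098, 1649 and 1322 in the Atm-/- and 761, 963, 826, 968 and 907 in the Rag2c/c p53-/- lymphomas. Tmem173, the adaptor STING, was called in neither comparison with WT (0.51 and -0.66) and differed by 1.17 between Atm-/- and Rag2c/c p53-/- lymphomas (limma adjusted p = 0.00092). Of the 8 negative regulators and nucleases 7 were tested, and Samhd1, an enzyme that breaks down deoxynucleotide triphosphates, was the only one called (-3.23 and -3.58). Trex1 was listed at 0 in every library. Whether its RNA was absent or its reads were not assigned to it was not tested.

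**Figure D5:**
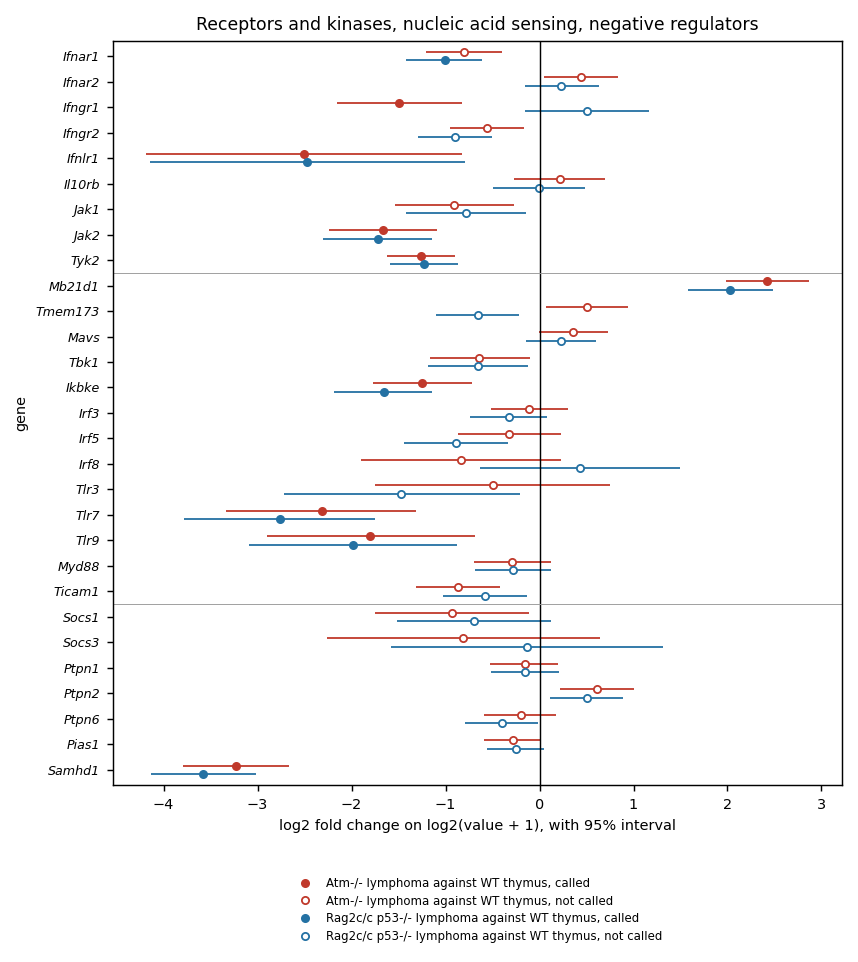
Log2 fold change with its 95% interval against WT thymus for the 29 tested genes upstream of the response, receptors and kinases at the top, nucleic acid sensing in the middle and negative regulators at the bottom; filled points were called. Mb21d1 lies to the right of 0 in both lymphoma groups, Samhd1 is farthest to the left, and Ifngr1 lies to the left in Atm-/- lymphomas alone.

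Markers of cell types differed between the groups alongside these genes, and their part in the results was not tested. The counts below stand beside 17.0% lower and 12.6% higher of all genes tested in Atm-/- lymphomas. For Rag2c/c p53-/- lymphomas these shares were 13.9% and 9.77%. Summed T lineage markers ranged from 67573 to 110541 in WT, 62471 to 118369 in the Atm-/- and 58495 to 129304 in the Rag2c/c p53-/- lymphomas, with 0 of 6 called. Summed markers of B cells fell from 1498 to 1912 in WT to 274 to 345 and 166 to 557 (4 and 5 of 6 called lower), and those of dendritic cells were at 538 to 868, 182 to 492 and 165 to 647 (3 and 3 of 6 lower). Late single-positive thymocyte markers were at 15339 to 15867, 5039 to 16608 and 1223 to 4961 (3 and 4 of 6 lower), and double-positive markers at 126760 to 190201, 30134 to 65641 and 59448 to 82923 (5 and 1 of 6 lower). Of 4 plasmacytoid dendritic cell markers 3 were lower in each group. Their sum was 1739 to 2053 in WT and 93 to 662 in Atm-/-, but 1064 to 5768 in Rag2c/c p53-/- lymphomas owing to Cox6a2. Pacsin1 made up most of the WT sums, at 1477 to 1744. It was at 9 to 25 in the Atm-/- and at 169 to 597 in the Rag2c/c p53-/- lymphomas. Thymic epithelium was at 504 to 845, 71 to 525 and 67 to 908 (3 and 4 of 6 lower), with Psmb11 at 0 in 9 of 10 lymphomas. The sum of 908, in Rag2c/c p53-/- lymphoma 2, was mostly Epcam (875). Of 4 natural killer markers Ncr1, Klrb1c and Klre1 were lower and Gzma higher, which set their sum (1340 to 1452, 3727 to 6947 and 2090 to 9706). Macrophage markers were at 4094 to 5177, 6730 to 11628 and 4043 to 8600 (4 and 1 of 6 higher), and fibroblast markers at 204 to 218, 3783 to 18172 and 642 to 2336 (5 and 4 of 6 higher). Endothelium was at 3607 to 3720, 3134 to 6186 and 1820 to 5255 (0 and 2 of 3 tested lower). Pecam1 made up most of these sums, at 3529 to 3660, 3036 to 6173 and 1809 to 5252. Erythroid genes were at 1036 to 2288, 894 to 6410 and 791 to 4644 (none called).

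The libraries held 19788898 to 21591289 normalized counts each, since the authors scaled them, and 17325 to 22338 genes above 0. Steps between low values put 1 read at 3.25 in WT thymus 2 and 3.38 in Rag2c/c p53-/- lymphoma 2, the shallowest libraries, and at about 1 or less in 7 others. Atm, the gene altered in the first group, was at 1559 to 2274 in WT, 208 to 732 in the Atm-/- and 439 to 1315 in the Rag2c/c p53-/- lymphomas, so it was also low where it was intact. Rag2, shortened in the second, was at 4199 to 5409, 46 to 1025 and 260 to 790, and Trp53, disrupted there too, at 4387 to 6341, 6853 to 11318 and 2018 to 5461. Counts over a whole gene can include RNA of a disrupted allele and so do not test these labels. Xist was at 26404 to 30159 in WT, at 7306 to 14060 in Atm-/- lymphomas 1, 2 and 3, and at 0 to 3 in the other 7 lymphomas. The level of Xist thus went partly with the groups. The sex of the mice was not read here from any other gene. With a term for Xist, 12 of the 35 genes lost their call in Rag2c/c p53-/- lymphomas, namely Ifit1, Ifit2, Isg20, Zbp1, Rsad2, Cmpk2, Ddx58, Isg15, Gbp3, Ifi35, Xaf1 and Sp100, all still with negative log2 fold changes, from -3.06 for Ifit1 to -0.58 for Zbp1, and in Atm-/- lymphomas Isg20 (-1.34) and Irgm1 (-0.96) lost theirs. With only the Atm-/- lymphomas 1, 2 and 3 against WT, a choice made after seeing the data, 29 of the 47 genes were called, and among the 30 genes Irgm1 lost its call (log2 fold change -0.96).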

How the data were processed

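The deposited table gives, per the labels and the methods, normalized counts for 13 libraries: STAR 2.4.0g1 mapped the reads to GRCm38, Picard took out duplicates, HTSeq-count assigned uniquely mapped reads to Ensembl genes, and the authors divided these by DESeq2 1.6.3 size factors. The methods describe this for the WT thymuses and for other lymphomas, and it was assumed for the lymphomas used here. The deposited values are used as a score, being normalized counts that the authors rounded to whole numbers. Raw counts were not used here, and rounding hides how many reads most values stand for. The overall mean listed in the table differs by over 10% from the mean of the 13 columns for 9057 of 14744 genes with a mean of at least 10, so the authors' scaling may have included other libraries. The table's fold change, p-value and dispersion columns are the authors' comparisons and were not used.

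By the methods, RNA came from single-cell suspensions, and poly(A) RNA was sequenced with a stranded kit. This too was described for the WT thymuses and for other lymphomas, and was assumed for the lymphomas used here. Reads of 129S6/SvEv mice were set against the C57BL/6 reference. Values were put on the log2(value + 1) scale, a pseudocount of 1, and 3 groups (5 Atm-/-, 5 Rag2c/c p53-/-, 3 WT) were compared in limma 3.58.1 (R 4.3.3; trend and robust options on) over 15872 genes with at least 10 in at least 3 libraries, and p-values were adjusted by Benjamini-Hochberg over all of them. The fold change on this scale understates that of low genes. The depth of each library was not given in the sources used here, and a value of 1 to 3 can be a single read. The fit was tested on simulated data. Each of the 47 genes called in any comparison is given in every library, and the others by range or by log2 fold change, as are most genes of the upstream lists. The 47 genes and all lists were chosen with earlier results of these data known. Promoter windows are from RefSeq (GRCm38.p6), and exon lengths from GENCODE on GRCm38. Alternatives tried were another pseudocount, no filter, size factors recomputed from the 13 columns, equal column totals, only the 2 groups compared, the adjusted p alone, and leaving out each library. Added after seeing the data were a fit without the Atm-/- lymphomas low in Xist and one with a term for Xist at 10 or more. The list of receptors and kinases was used without 1 gene, which is not reported here.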

Additional observations from a re-analysis of the deposited data

Results flagged for a closer look

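In 10 of 94 groups of 5 libraries (47 genes in 2 lymphoma groups), 1 library stood apart from the rest by Dixon's test at the 95% level. For normal and independent values about 1 in 20, or 4.7, would do so. The test was run on normalized counts rather than their logs, and the genes share the same libraries. The 10 can therefore not be weighed against 4.7. Atm-/- lymphoma 3 was high for Ifit1 (195, others 26 to 32) and for Rsad2 (116, others 24 to 34). Rag2c/c p53-/- lymphoma 4 was high for the sensors Ifih1 (216, others 34 to 68) and Dhx58 (262, others 99 to 141). Atm-/- lymphoma 2 was low for Oasl1 (5, others 24 to 30) and high for Gbp2 (559, others 218 to 312). Atm-/- lymphoma 4 was high for Ifitm3 (562, others 222 to 306), and Rag2c/c p53-/- lymphoma 1 for Gbp7 (391, others 151 to 212). For Xaf1, Atm-/- lymphoma 5 was low (406, others 549 to 600) and Rag2c/c p53-/- lymphoma 2 was high (517, others 119 to 221). Except for Ifitm3 and for Xaf1 in Atm-/- lymphomas, each of these genes was called lower against WT in the group concerned.

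The lymphoma groups differed from each other, by limma's test of that difference, in 5 of the 47 genes. That was 8.51% higher and 2.13% lower in Atm-/- lymphomas, against 3.51% and 4.33% of all genes tested. Whether the 47 genes differ from all genes in this was not tested. Atm-/- minus Rag2c/c p53-/-, the log2 difference was 2.06 for Gbp7, 1.90 for Gbp3, 1.33 for Xaf1, 1.07 for Gbp2 and -1.34 for Rsad2. The strains of these groups also differ, and genotype and strain cannot be told apart.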

How the results depend on the processing

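The number of genes called among the 47 was 30 in the Atm-/- and 35 in the Rag2c/c p53-/- lymphomas against WT, and ranged from 28 to 33 and from 32 to 36 when 1 library at a time was left out. Between the lymphoma groups 5 genes were called, 4 to 8 with 1 library left out (8 without Atm-/- lymphoma 3), 3 with only these 2 groups in the fit and 9 by the adjusted p alone. A term for Xist, added after seeing the data, left 29, 23 and 2 of the 47 genes called, and 4115, 1298 and 610 of all genes. Over all genes tested 4687, 3750 and 1244 were called, with 3401 to 4666, 2505 to 3933 and 934 to 1315 when 1 library was left out, and by the adjusted p alone 7078 in the Atm-/- and 5916 in the Rag2c/c p53-/- lymphomas against WT. No log2 fold change of a called gene among the 47 turned its sign under these alternatives. Of the called genes 27 of 30, 22 of 35 and 2 of 5 kept their call in all alternatives, the Xist term included. Apart from that term, the calls lost in at least 1 were those of Adar, Isg20 and Irgm1 in Atm-/-, Zbp1, Cmpk2 and Ifi44 in Rag2c/c p53-/- lymphomas, and Rsad2 and Gbp2 between the lymphomas. Without the filter Zbp1 in Rag2c/c p53-/- lymphomas (-1.22) and Rsad2 between lymphomas (-1.34) missed the threshold, and with only the 2 lymphoma groups Rsad2 (-1.34) and Gbp2 (1.07) did; the cause was not tested. Other scalings moved the median of all genes by at most 0.015. No paired analysis was possible because the replicate numbers of the lymphomas follow the order of the samples and pair nothing. Low values limit Iigp1, Oas2 and Oasl1 in single lymphomas, where 1 read was worth up to 3.38. Strain and series went with the groups and could not be fitted as terms.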
